A study of Mus musculus with 7 samples.

Results

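The interferon gamma response module described here is a list of 36 gene symbols that interferon gamma is known to induce or that carry its signal. The symbols were matched to 37 rows of the 27998 genes that all 7 libraries list, since Gbp6 names 2 gene identifiers. The libraries are 10x Genomics 3′ single-cell RNA-seq of central nervous system cells of B6 mice, taken when experimental autoimmune encephalomyelitis (EAE) peaked. EAE is a T cell-driven inflammatory disease induced here with the MOG35-55 peptide. All groups carried the disease, so no healthy tissue was compared. Control mice (labelled Lag3wt, here WT) and LAG3-deficient mice (labelled Lag3Floxed in the genotype field and lag3ko in the titles, here Lag3KO) were matched for age and sex, and cells were enriched with beads for CD4 (WT 2 libraries, Lag3KO 2 libraries) or for CD45, a marker of all leukocytes (WT 2 libraries, Lag3KO 1 library). The labels give 5 mice per group, no age, no Cre driver for the floxed allele, and not which mice each library holds. Whether libraries of a group come from separate mice is not stated, so the p-values below measure the spread between libraries, which may be technical.

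Interferon gamma is secreted mainly by T cells and natural killer cells and binds a receptor of the chains IFNGR1 and IFNGR2. The kinases JAK1 and JAK2 carry the signal on, promoters of early target genes hold GAS elements, and the induced factor IRF1 acts on ISRE elements. The targets include GTPases that attack membranes around intracellular pathogens, the immunoproteasome and the transporter that supply peptides to MHC class I, and proteins that damp the response. In EAE the central nervous system fills with T cells, monocytes and macrophages, and resident microglia respond to the same cytokine.

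The promoters of the members show these elements as letters, so those of the genes with the densest arrangement are given first. RefSeq (GRCm38.p6) promoter entries of 250 bases before to 50 bases after the start were matched for 24 of the 36 symbols, and a gene counted where any of its listed starts held the letters. The GAS core TTCNNNGAA, searched on both strands, was in the promoters of 9 of these 24 members and in 9.55% of the 27025 genes with an entry. The ISRE core GAAANNGAAA, also searched on both strands, was in 10 of the 24 and in 3.99% of all genes. Both cores stood in 1 promoter in 6 members (Gbp5, Gbp7, Igtp, Irgm2, Tgtp1 and Tgtp2) and in 0.540% of all genes. In 4 immunity-related GTPase genes on chromosome 11 the ISRE core starts 11 bases after the start of the GAS core, an arrangement that was noticed in these sequences and then counted, and that only 1 other gene of the 27025, Gm12185, has. The stretches, all in GRCm38.p6, are chr11:58199436-58199545 (Igtp, plus strand), chr11:58214857-58214966 (Irgm2, plus), chr11:48992257-48992366 (Tgtp1, minus) and chr11:49064223-49064332 (Tgtp2, minus). Capitals mark the GAS and ISRE cores, each stretch runs 5′ to 3′ from 120 to 11 bases before the start, and a match of letters is no measured binding site.
Igtp: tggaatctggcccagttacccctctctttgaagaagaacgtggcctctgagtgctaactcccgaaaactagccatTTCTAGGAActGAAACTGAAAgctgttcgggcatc
Irgm2: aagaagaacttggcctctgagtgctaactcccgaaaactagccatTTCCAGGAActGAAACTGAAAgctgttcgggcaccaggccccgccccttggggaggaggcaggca
Tgtp1: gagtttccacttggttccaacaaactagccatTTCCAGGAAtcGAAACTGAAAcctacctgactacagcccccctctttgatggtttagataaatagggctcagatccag
Tgtp2: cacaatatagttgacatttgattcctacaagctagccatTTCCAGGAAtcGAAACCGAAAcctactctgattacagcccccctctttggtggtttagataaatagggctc

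Aligned on the GAS core, the stretches of Igtp and Irgm2 were identical at 77 of 80 bases, so these nearly repeat each other and are not independent examples. Those of Tgtp1 and Tgtp2 were identical at 65 of 103 bases (63.1%), and the pairs across the 2 sets at 49.5% to 58.1%. The shared cores are part of these counts, and whether the other promoters are independent examples was not tested. Igtp lies on the plus strand of chr11:58199556-58207591 and Irgm2 on the same strand at chr11:58199618-58222782 in the GENCODE vM21 annotation (GRCm38). Their gene models overlap by 7974 bases, and reads could be split between them. The other shown set holds some of the members that have a core and are among the 2 with the most UMIs in their role group. Psme1, with an ISRE core, and Icam1, with a GAS core, are also such members and are not shown. Shown are Irf1, the factor that carries the response forward, and Psmb8, a catalytic subunit of the immunoproteasome, each with a GAS core. The guanylate-binding proteins shown are Gbp2, with an ISRE core read on the other strand, and Gbp7, with 2 GAS cores and 1 ISRE core on the other strand. The stretches are chr11:53769894-53770003 (Irf1), chr17:34198075-34198184 (Psmb8), chr3:142620543-142620652 (Gbp2) and chr3:142530216-142530325 (Gbp7), all on the plus strand. Not every start used is the 5′ end of the annotated gene model. The stretches of Irgm2, Tgtp1 and Psmb8 lie inside the model of their gene, and that of Gbp2 lies partly inside. These models begin at chr17:34197721 (Psmb8), chr3:142620602 (Gbp2) and, on the minus strand, chr11:48994172 (Tgtp1).
Irf1: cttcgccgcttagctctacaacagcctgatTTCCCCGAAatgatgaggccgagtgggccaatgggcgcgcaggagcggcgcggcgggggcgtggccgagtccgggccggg
Psmb8: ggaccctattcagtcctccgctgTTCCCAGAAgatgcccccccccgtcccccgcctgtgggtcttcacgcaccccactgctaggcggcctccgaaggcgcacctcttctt
Gbp2: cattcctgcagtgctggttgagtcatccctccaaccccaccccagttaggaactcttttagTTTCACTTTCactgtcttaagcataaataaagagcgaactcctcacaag
Gbp7: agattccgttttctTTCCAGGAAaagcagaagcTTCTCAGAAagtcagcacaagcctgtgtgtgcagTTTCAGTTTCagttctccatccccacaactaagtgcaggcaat

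The libraries held 1428 to 2517 barcodes and 4585251 to 18940186 UMIs (molecules counted once by their tag), and 103 barcode strings occur in more than 1 library. Barcodes held a median of 2086 to 2600 UMIs after CD4 enrichment and of 5680 to 6405 after CD45 enrichment. Sort and mouse sex cannot be told apart, since Xist was at 927 to 1016 CPM (UMIs per 1000000 UMIs) in the CD4 and at 0 in the CD45 libraries, and the Y-linked Ddx3y was at 0.173 CPM or lower in the CD4 and at 50.5 to 52.5 CPM in the CD45 libraries. Lag3, the targeted gene, had 289, 107 and 304 UMIs in 3 WT libraries and 0 to 2 in the Lag3KO libraries, but only 4 in the second WT library of the CD45 sort, against its label. That library is called the library labelled WT CD45 2 throughout, and values without it are given where a genotype direction rests on it.

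Barcodes were placed by summed UMIs of cell type markers, none of which is a member: 6082 as T cells, 1595 as monocytes, 1138 as macrophages, 1015 as dendritic cells, 398 as microglia and 298 as neutrophils, of 13922 in all. A further 1838 barcodes were set apart as mixed, with T cell and myeloid markers together or with markers of several myeloid classes. The gate used these marker sums, so their medians in the CD45 libraries describe the classes and are no check of them. The sum of neutrophil markers was 664.0 UMIs per 10000 in neutrophils and at most 2.81 in the other 5 classes. That of T cell markers was 64.8 in T cells and 0 in the others. CD45 dendritic cells held 21.3 UMIs of dendritic cell markers per 10000 but 36.05 of monocyte markers, against 1.42 and 156.5 in monocytes; the part of these markers in what both classes share below was not tested. Microglia in the CD45 libraries held 57.6 UMIs of microglial markers per 10000 against 125.0 in the CD4 libraries, and 387.0 of macrophage markers, which include Apoe and the C1q genes that microglia also express. A class entered a comparison in a library with at least 20 barcodes, which left out CD45 neutrophils of the library labelled WT CD45 2 (15 barcodes), CD45 microglia of WT CD45 1 (19), and dendritic cells in every CD4 library.

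Among the 6 classes compared, the module took the largest part of the transcriptome in monocytes and dendritic cells. Its score is the sum of member UMIs per 10000 UMIs of a barcode. The median score in monocytes was 76.4 in WT CD45 1, 73.1 in the library labelled WT CD45 2 and 75.3 in Lag3KO CD45, a mean of 74.9 ± 1.72 (SD, n = 3). Dendritic cells had 74.1, 72.9 and 77.3 in the same libraries, a mean of 74.7 ± 2.29 (SD, n = 3), which did not differ from monocytes beyond the spread of libraries. Both classes lay above macrophages, microglia, T cells and neutrophils in every CD45 library in which those were used.

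Macrophages followed with 60.4, 50.1 and 65.5 (mean 58.6 ± 7.85, n = 3), T cells with 45.1, 53.6 and 58.7 (52.5 ± 6.90, n = 3) and microglia with 44.5 and 54.5 (49.5 ± 7.06, n = 2). The spreads of these 3 classes overlap. Neutrophils were lowest, with 36.6 in WT CD45 1 and 26.8 in Lag3KO CD45 (31.7 ± 6.97, n = 2). A stricter gate that asks for more marker UMIs left only WT CD45 1 in use (26 barcodes). Its neutrophil score was then 15.03, against 36.6 with the first gate. When each barcode was thinned to 1500 UMIs, which removed no barcode of these classes in the CD45 libraries, the means were 73.3 in monocytes, 75.5 in dendritic cells, 60 in macrophages, 53.3 in microglia, 51.1 in T cells and 25 in neutrophils.

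**Figure D1:**
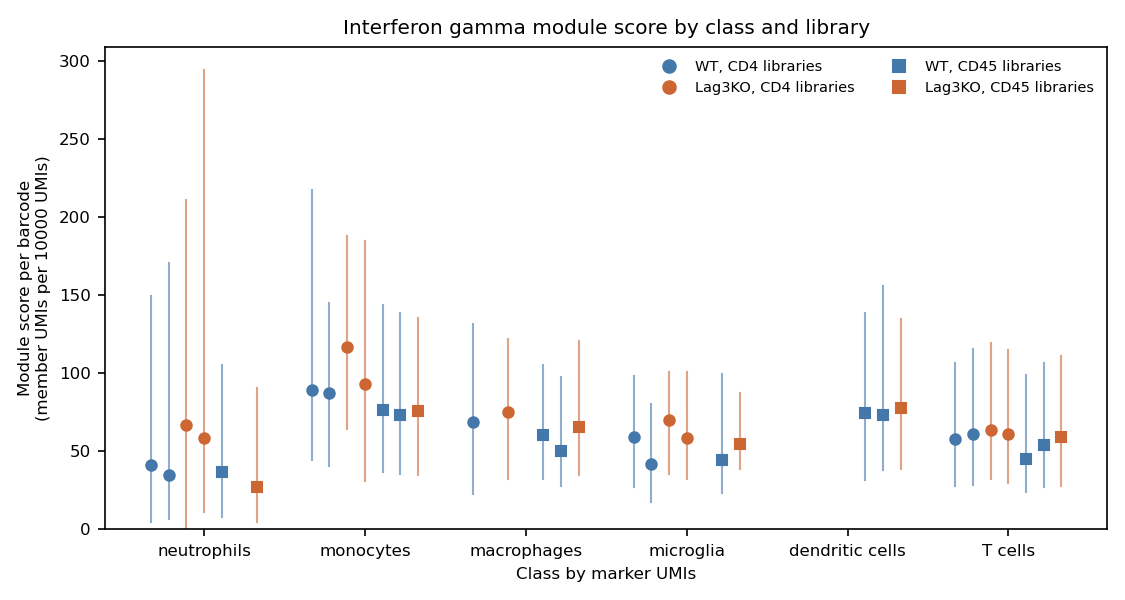
Median module score per barcode (member UMIs per 10000 UMIs) in each class and library; vertical lines run from the 10th to the 90th percentile of barcodes, circles are CD4 and squares CD45 libraries, blue WT and orange Lag3KO, and classes with under 20 barcodes in a library are left out. CD45 monocytes and dendritic cells sit between 72.9 and 77.3, and CD4 neutrophils have the widest ranges.

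In the CD4 libraries, where myeloid cells are few, the score was again highest in monocytes (96.4 ± 13.7, n = 4), with macrophages at 71.8 ± 4.91 (n = 2), T cells at 60.7 ± 2.35 (n = 4), microglia at 57.2 ± 11.7 (n = 4) and neutrophils at 50.3 ± 14.8 (n = 4). The CD4 neutrophils had median depths of 883 to 1232 UMIs against 8328 or more in the CD45 libraries. Only 9 to 17 of their barcodes per library reached 1500 UMIs, and those had a mean thinned score of 13.3. The neutrophil scores of the 2 sorts are therefore given side by side and not compared.

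A few members supplied most of the score. AW112010, an interferon-inducible transcript annotated as a long noncoding RNA, held 27.9% of the member UMIs of all libraries and Psmb8 held 16.5%. The other 3 of the top 5 were Psme1 and Psme2, the PA28 activator of the proteasome, and Psmb9. Without those 5 the mean score in the CD45 libraries was 30.4 in monocytes, 24.6 in dendritic cells, 21.3 in microglia, 16.6 in macrophages, 12.7 in T cells and 11.1 in neutrophils, so microglia then stood above macrophages and T cells close to neutrophils.

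**Figure D2:**
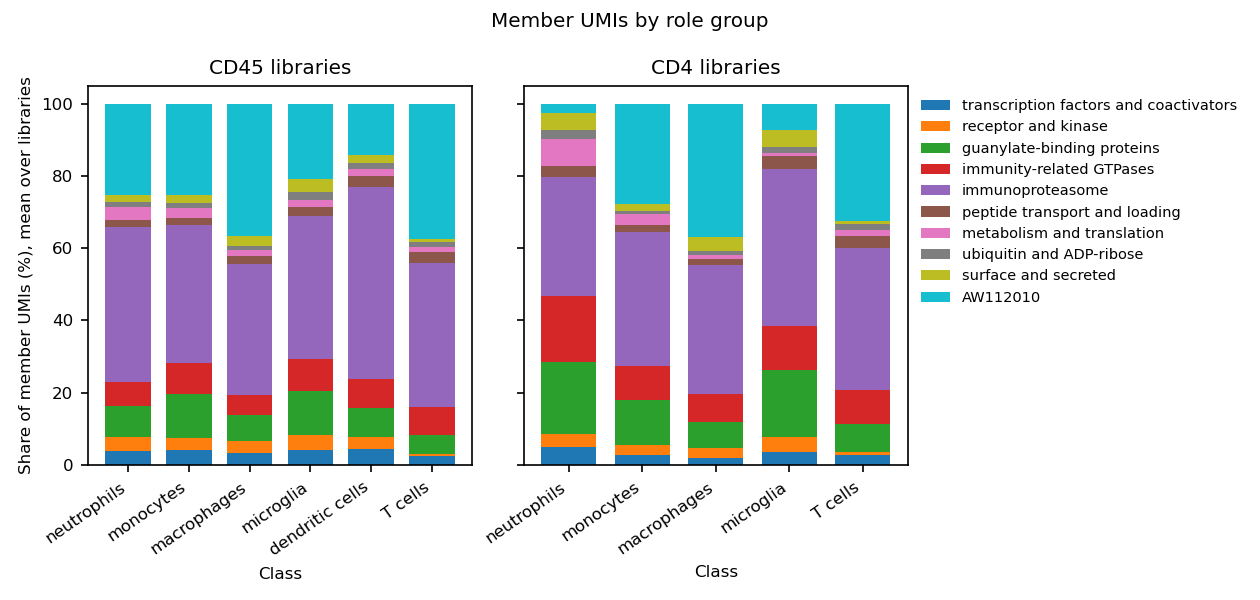
Share of member UMIs (%) by role group, mean over libraries, for each class in the CD45 (left) and CD4 (right) libraries. AW112010 took 37.5% of the member UMIs of CD45 T cells and 14.1% of those of dendritic cells, where the immunoproteasome took 53.4%.

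The make-up differed between classes. The immunoproteasome supplied 53.4% ± 2.11 (SD, n = 3) of member UMIs in dendritic cells, and 36.4% to 42.8% in the other classes of the CD45 libraries. The guanylate-binding proteins supplied 12.3% ± 0.904 in monocytes, 12.2% ± 1.28 (n = 2) in microglia and 5.20% ± 0.541 in T cells. AW112010 supplied 37.5% ± 2.14 in T cells and 36.5% ± 1.84 in macrophages. It made up 20.8% ± 0.256 (n = 2) in CD45 microglia and 7.09% ± 1.28 (n = 4) in CD4 microglia, and 25.1% ± 3.91 (n = 2) in CD45 against 2.36% ± 2.00 (n = 4) in CD4 neutrophils. In CD45 neutrophils the median sum of monocyte markers was 115 per 10000 and of macrophage markers 15.2, against 65.1 and 0 in CD4 neutrophils; the part of these markers in the difference was not tested.

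Each class was then compared with the mean of the other 5 over the 3 CD45 libraries, gene by gene, with the library as a block (edgeR quasi-likelihood test, two-sided, Benjamini-Hochberg adjustment over 10218 genes, called under 0.05). Of the 37 member rows 35 could be tested. The second Gbp6 row held 0 UMIs, and Serping1, an inhibitor of the complement C1 proteases, held 89 UMIs in all libraries, with 5.59 ± 2.83 CPM in CD45 microglia (n = 2) and 1.04 CPM or lower in the other 5 classes. All member levels below are CPM of the class in 1 library, and all differences are log2 of the class over the mean of the others ± SE.

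Monocytes were higher in 26 of the 35 members and lower in 0, against 15.3% and 4.01% of all genes tested, with a median difference of 0.54 over the members and 0.06 over all genes. When the interferon-inducible markers Ms4a4c, Plac8 and Ly6c2 were left out of the monocyte gate, an alternative chosen after seeing the data, 16 members were called higher. These markers also count toward a ceiling on myeloid markers in the T cell gate. In the same alternative 20 members were called higher and 1 lower in dendritic cells, and 5 higher and 17 lower in T cells. The share of all genes called under that gate was not taken. The listed dendritic cell markers include Ifi205, named for its activation by interferon, and no alternative left it out. Dendritic cells were higher in 25 and lower in 1, against 19.1% and 10.8% of all genes, with medians of 0.55 and 0.05. Of the members, 19 were called higher in both classes. T cells were higher in 4 and lower in 22, against 25% and 24.4% of all genes, with medians of -0.43 and 0.03. Of the 26 members called higher in monocytes, 20 were called lower in T cells. The share of all genes with either overlap was not taken. Each class is part of the mean that the others are set against, so a low T cell level by itself raises the differences of the other classes.

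Macrophages were higher in 6 and lower in 3 members (15.8% and 8.32% of all genes) and microglia higher in 6 and lower in 2 (8.12% and 3.84%). The microglial balance turned to 3 higher and 5 lower under the stricter gate, and 2 higher and 1 lower were called without Lag3KO CD45. Neutrophils were higher in 1 and lower in 6 (7.8% and 3.98%). The macrophage share higher is close to that of all genes. In neutrophils the 1 member higher was Upp1, and without WT CD45 1, which left 1 library of neutrophils, 0 were called.

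**Figure D3:**
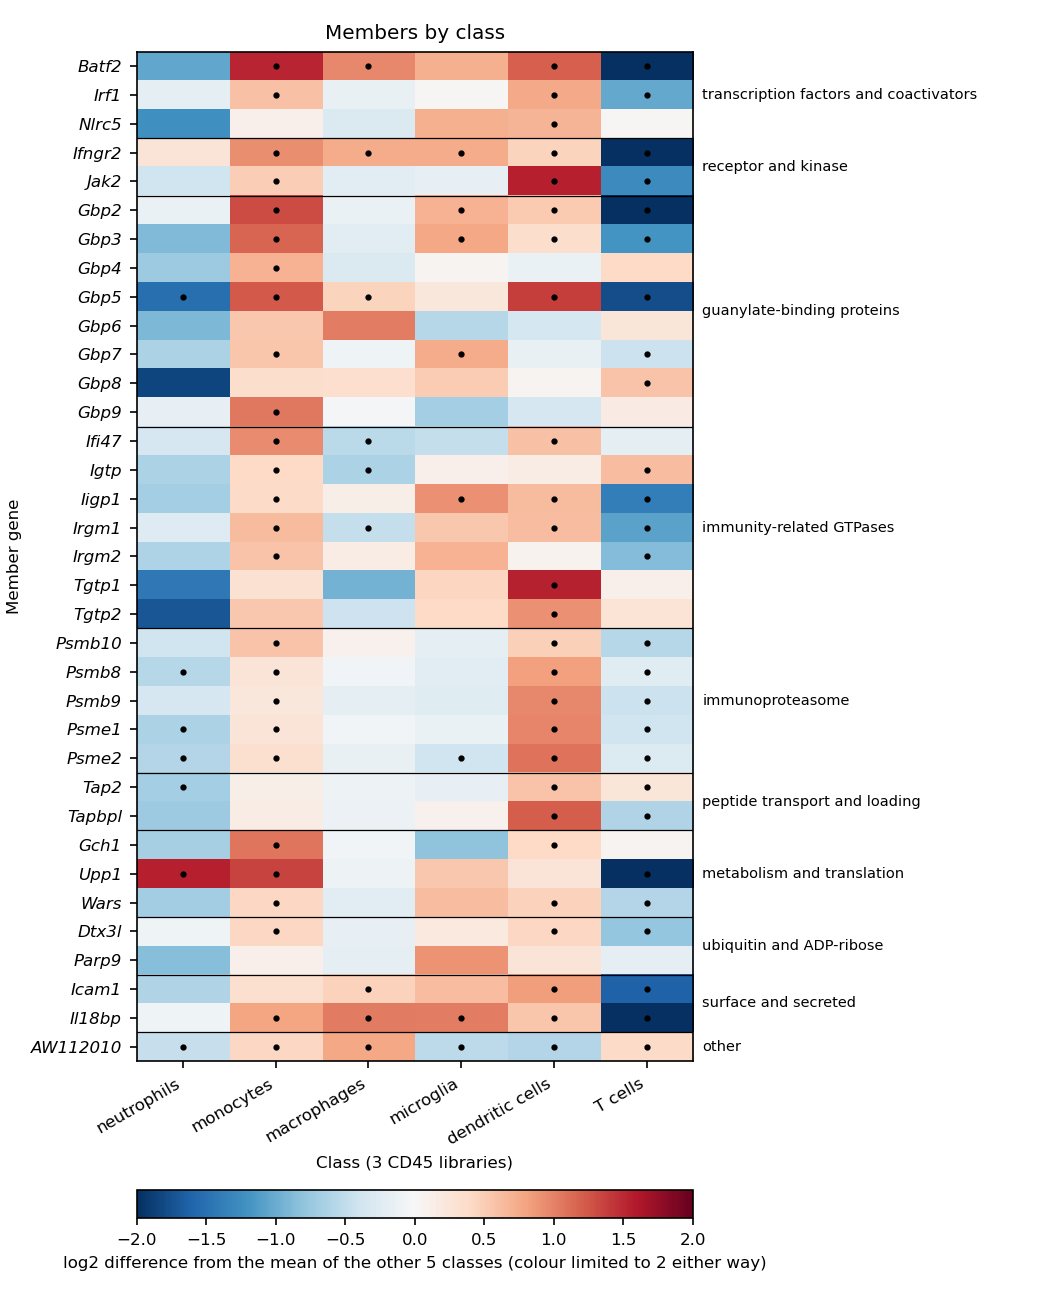
log2 difference of each tested member (rows, by role group) in each class (columns) from the mean of the other 5 classes, over the CD45 libraries (3 for monocytes, macrophages, dendritic cells and T cells, 2 for microglia and neutrophils); dots mark an adjusted p under 0.05 and colours stop at 2 either way. Monocytes have 26 dotted members on the higher side and T cells 22 on the lower side.

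Among the receptor and its kinase, Ifngr2, the signalling chain of the receptor, was higher in monocytes, macrophages, microglia and dendritic cells and lower in T cells. The low T cell level is part of the mean that each of those 4 classes was set against, so the calls are not separate results. In T cells Ifngr2 was at 27.7, 20.7 and 21.7 CPM in WT CD45 1, the library labelled WT CD45 2 and Lag3KO CD45, and in monocytes at 203, 194 and 223 CPM. The groups do not overlap, and T cells were lower than the mean of the other classes by -3.11 ± 0.13 (edgeR adjusted p = 1.81e-19). The T cell level was 11.3% of that of monocytes, while the monocyte markers in T cells summed to 4.55% of their median sum in monocytes; the part of myeloid RNA in the T cell level was not tested. In the CD4 libraries T cells held 14.6 to 25.4 CPM of Ifngr2.

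Jak2, the kinase bound to that chain, was highest in dendritic cells, at 98.9, 92.6 and 109 CPM, against 13.3, 31.1 and 19.8 CPM in T cells. Dendritic cells exceeded the mean of the other classes by 1.55 ± 0.13 (edgeR adjusted p = 2.31e-11), and monocytes by 0.49 ± 0.14.

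Of the transcription factors and coactivators, Irf1 was at 263, 188 and 245 CPM in monocytes, 272, 239 and 244 CPM in dendritic cells and 103, 110 and 98.0 CPM in T cells. Monocytes and dendritic cells overlap and both lie above T cells in every library. The difference was 0.58 ± 0.08 in monocytes, 0.76 ± 0.09 in dendritic cells and -1.02 ± 0.11 in T cells. Batf2, a partner of AP-1 family factors, was lowest in T cells, with 3.50 ± 3.05 CPM against 57.6 ± 7.55 in monocytes (SD, n = 3). Nlrc5, the transactivator of MHC class I genes, was called higher in dendritic cells alone, at 49.9, 35.6 and 42.4 CPM and a difference of 0.68 ± 0.15. Microglia, at 50.2 and 32.9 CPM, did not pass (0.71 ± 0.30, edgeR adjusted p = 0.149). The T cell level of Nlrc5 was 34.0 ± 7.49 CPM, a difference of 0.02 ± 0.18.

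The guanylate-binding proteins, large GTPases recruited to pathogen membranes, split into 2 clusters of genes. Gbp2, Gbp3, Gbp5 and Gbp7 lie on chromosome 3, and Gbp4, Gbp6, Gbp8 and Gbp9 on chromosome 5. All 4 genes of chromosome 3 were higher in monocytes and lower in T cells. Gbp2 was at 631, 614 and 526 CPM in monocytes and at 86.4, 100.2 and 65.0 CPM in T cells. It was higher by 1.31 ± 0.09 in monocytes (edgeR adjusted p = 5.46e-13), by 0.70 ± 0.16 in microglia and by 0.53 ± 0.10 in dendritic cells, and in T cells the difference was -2.28 ± 0.14.

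Gbp7 was called higher in microglia, at 104 and 162 CPM, and in monocytes, at 112, 126 and 117 CPM, with differences of 0.75 ± 0.21 and 0.56 ± 0.11. Gbp5 had 49.9 ± 2.04 CPM in monocytes and 9.90 ± 2.83 in T cells (n = 3). Of the chromosome 5 genes none was called lower in T cells, and Gbp8 was called higher there, at 29.9, 24.9 and 26.4 CPM (difference 0.57 ± 0.22, edgeR adjusted p = 0.0334).

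Gbp4 was called higher in monocytes alone, at 73.1, 61.7 and 59.5 CPM, and was at 49.8, 65.6 and 69.7 CPM in T cells. Gbp9 was likewise called in monocytes alone, at 30.2, 26.1 and 33.5 CPM (difference 1.06 ± 0.22). The gene models of Gbp4, Gbp8 and Gbp9 share 23773 bases or more of the minus strand with each other in the annotation, so how reads were divided among them is uncertain. Gbp6 was called in no class. The gene models of its 2 rows also overlap on the minus strand, and the annotation names the row with 0 UMIs Gm43302. How reads were divided between these rows is uncertain too. Its level differed between the sorts, with 19.6 to 32.8 CPM in CD4 and 2.07 to 5.54 CPM in CD45 T cells, and the files of the sorts list 27998 and 28692 genes.

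**Figure D4:**
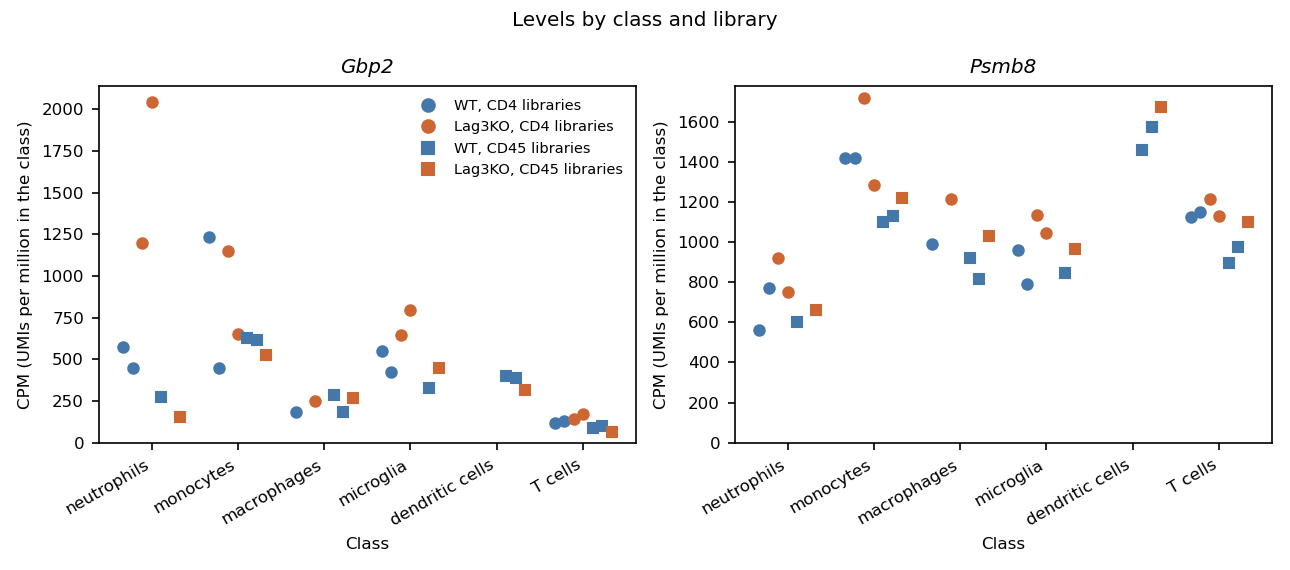
CPM of Gbp2 (left) and Psmb8 (right) in each class and library (circles CD4, squares CD45, blue WT, orange Lag3KO); each point is 1 library and both axes start at 0. Gbp2 lies between 526 and 631 CPM in CD45 monocytes and at 173 CPM or lower in T cells, while Psmb8 is at 896 CPM or higher in every T cell library.

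The immunity-related GTPases, which act on vacuoles of intracellular pathogens, had 5 of 7 members higher in monocytes and 5 of 7 in dendritic cells, and 3 of 7 lower in macrophages. Ifi47 was at 281, 305 and 275 CPM in monocytes, 235, 258 and 200.3 CPM in dendritic cells, and 123, 109 and 119 CPM in macrophages. The macrophage values lie below both other classes in each library, with a difference of -0.53 ± 0.11 against 0.94 ± 0.09 in monocytes. Irgm1 was also called lower in macrophages (-0.48 ± 0.11), at 75.9 ± 10.8 CPM against 152 ± 18.7 in monocytes (n = 3).

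Igtp was the 1 of the 7 called higher in T cells, at 160, 159 and 170 CPM, and lower in macrophages, at 69.8, 54.6 and 74.3 CPM, with differences of 0.62 ± 0.11 and -0.63 ± 0.12. Irgm2, whose promoter nearly repeats that of Igtp, was called higher in monocytes alone (23.5, 30.7 and 21.9 CPM) and lower in T cells (5.54, 14.5 and 17.0 CPM; -0.87 ± 0.26). Since both gene models overlap, this opposite pattern in T cells is of uncertain origin.

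Tgtp1 and Tgtp2, near-identical copies whose reads the counting may have split or dropped, were both called higher in dendritic cells alone. Tgtp1 was at 12.9, 16.6 and 6.98 CPM there (1.53 ± 0.30) and Tgtp2 at 9.46, 14.8 and 6.98 CPM (0.91 ± 0.32). Iigp1 was higher in microglia (0.91 ± 0.27), monocytes and dendritic cells and lower in T cells. In CD4 microglia Iigp1 reached 409, 215, 302 and 366 CPM in the WT 1, WT 2, Lag3KO 1 and Lag3KO 2 libraries, above the 61.0 and 132 CPM of the CD45 microglia used.

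All 5 immunoproteasome members, which replace or activate the standard proteasome for MHC class I peptides, were higher in dendritic cells and in monocytes and lower in T cells. Psmb8 was at 1458, 1573 and 1671 CPM in dendritic cells, 1101, 1130 and 1218 CPM in monocytes and 896, 975 and 1099 CPM in T cells. Dendritic cells lie above both in each library, by 0.82 ± 0.06 over the mean of the other classes (edgeR adjusted p = 2.73e-13), and the T cell difference was -0.25 ± 0.06. Psme1 was at 822, 920 and 914 CPM in dendritic cells (0.98 ± 0.06), 457, 441 and 501 CPM in T cells, and 299.6 and 310.5 CPM in neutrophils (-0.64 ± 0.12). Neutrophils were lower in Psmb8, Psme1 and Psme2, and microglia in Psme2 (-0.40 ± 0.12).

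In peptide transport and loading, Tap2, a chain of the peptide transporter, was higher in dendritic cells, at 124, 143 and 144 CPM, and in T cells, at 117, 138 and 142 CPM. Monocytes were at 109, 105 and 107 CPM. Tapbpl, a peptide editor of MHC class I, was called higher in dendritic cells alone, at 90.3, 95.5 and 120 CPM (1.22 ± 0.13, edgeR adjusted p = 5.43e-09), and lower in T cells, at 21.0, 55.95 and 43.3 CPM (-0.61 ± 0.18).

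Among the enzymes of metabolism and translation, all 3 were higher in monocytes. Gch1, the first enzyme of tetrahydrobiopterin synthesis, was at 93.6, 81.5 and 107 CPM in monocytes (1.07 ± 0.12) and 67.5, 55.2 and 64.8 CPM in dendritic cells (0.41 ± 0.13). Wars, the cytosolic tryptophanyl-tRNA synthetase, was at 46.0, 44.1 and 41.4 CPM in monocytes and 25.5, 32.5 and 24.5 CPM in T cells. Upp1, which cleaves uridine, was higher in neutrophils, at 108 and 49.9 CPM (1.56 ± 0.35), and in monocytes (1.35 ± 0.17), and lower in T cells, at 7.75, 2.76 and 4.71 CPM (-3.60 ± 0.36). CD4 neutrophils held 317 to 555 CPM of Upp1, and in CD4 microglia it was at 0 CPM in all 4 libraries.

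Dtx3l and Parp9 form a complex that adds ubiquitin and ADP-ribose to its targets, and their genes share 682 bases on opposite strands. Dtx3l was higher in monocytes, at 82.3, 95.2 and 80.4 CPM, and dendritic cells, at 78.3, 95.5 and 81.2 CPM, and lower in T cells, at 50.9, 56.6 and 42.4 CPM. Parp9 was called in no class, with 33.2, 32.1 and 27.4 CPM in monocytes and 27.7, 25.6 and 37.7 CPM in T cells.

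Of the surface and secreted members, Icam1, the ligand of the integrin LFA-1, was higher in dendritic cells, at 112, 99.1 and 138 CPM (0.83 ± 0.12), and macrophages, at 91.7, 87.5 and 94.7 CPM (0.46 ± 0.12), and lower in T cells, at 24.4, 40.1 and 30.1 CPM. Il18bp, which neutralises interleukin-18, was higher in monocytes, macrophages, microglia and dendritic cells, each against a mean that holds the low T cell level. Il18bp was at 101, 73.4 and 88.0 CPM in macrophages (1.05 ± 0.12) and at 7.75, 4.14 and 14.1 CPM in T cells (-3.34 ± 0.23).

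AW112010 was higher in macrophages, at 2275, 2034 and 2765 CPM (0.78 ± 0.09), in monocytes, at 1970, 1930 and 2095 CPM (0.41 ± 0.09), and in T cells, at 1910, 2428 and 2435 CPM (0.38 ± 0.10). It was lower in dendritic cells, at 963, 1244 and 1088 CPM (-0.59 ± 0.10), in microglia, at 1098 and 1286 CPM (-0.52 ± 0.14), and in neutrophils, at 1230 and 749 CPM (-0.46 ± 0.14). It was the 1 member called lower in dendritic cells. In the CD4 sort T cells held 2037 to 2338 CPM and microglia 294 to 598 CPM.

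Other genes of the pathway showed where ligand and receptor lay; Ifng and Ifngr1 were chosen for mention after their values were seen. Ifng was at 152, 137 and 76.3 CPM in CD45 T cells, at 6.37 CPM or lower over the UMIs of each of the 5 myeloid classes of that sort, and 139.9 CPM in the barcodes with natural killer markers. Ifngr1 was higher in T cells, at 467, 544 and 531 CPM (0.99 ± 0.08), the reverse of Ifngr2. Of the 22 pathway genes tested, 12 were higher and 1 lower in monocytes, 15 and 2 in dendritic cells, 14 and 2 in macrophages, 10 and 1 in microglia, 0 and 13 in neutrophils, and 5 and 16 in T cells. The shares of all genes higher and lower were 15.3% and 4.01% in monocytes, 19.1% and 10.8% in dendritic cells, and 15.8% and 8.32% in macrophages. They were 8.12% and 3.84% in microglia, 7.8% and 3.98% in neutrophils, and 25% and 24.4% in T cells. The T cell count higher is thus close to the share of all genes. The 3 with the most UMIs were Cd74, B2m and H2-Ab1. Cd74, the invariant chain of MHC class II, was at 20320 ± 1577 CPM in macrophages, 21910 ± 1826 in dendritic cells and 11500 ± 684 in monocytes (n = 3). H2-Ab1, an MHC class II chain, was at 8961 ± 181 CPM in macrophages and 4782 ± 152 in monocytes. B2m, the light chain of MHC class I, was higher in microglia (11340 ± 519 CPM, n = 2; 0.64 ± 0.09) and macrophages (0.41 ± 0.08). Macrophages were thus higher in most of these pathway genes and in 6 of 35 members of the module.

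A list of 21 genes induced by type I interferon, several of which interferon gamma also induces, was set beside the module. Monocytes were higher in 19 of the 21 (median difference 1.12), against 15.3% of all genes, and dendritic cells in 16 (1.08), against 19.1%. Macrophages were higher in 0 and lower in 6 (-0.29), against 15.8% and 8.32% of all genes. Across barcodes of CD45 monocytes the module score had a Spearman rho with the type I score of 0.453, 0.498 and 0.300 in WT CD45 1 (496 barcodes), the library labelled WT CD45 2 (469) and Lag3KO CD45 (489). With the summed Cxcl9 and Cxcl10 UMIs rho was 0.509, 0.544 and 0.412, and with total UMIs it was -0.198, -0.115 and -0.0383. Barcodes of a library share its depth and preparation, so these are descriptions.

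The series compares LAG3-deficient with control mice. In T cells the median module score was 57.7 and 60.7 in the WT and 63.5 and 60.9 in the Lag3KO CD4 libraries, and 45.1 (WT CD45 1), 53.6 (the library labelled WT CD45 2) and 58.7 (Lag3KO) in the CD45 libraries. Each Lag3KO library lay above the WT libraries of its sort, by 2.94 between the CD4 means and 9.38 between the CD45 means, or 13.65 against WT CD45 1 alone. The gap between Lag3KO CD4 2 and WT CD4 2 was small beside the spread within either group. In monocytes Lag3KO was higher by 16.6 between the CD4 means, where the libraries do not overlap, and by 0.6 between the CD45 means, where they do. Against WT CD45 1 alone, without the library labelled WT CD45 2, the CD45 monocyte difference turned to -1.08. Macrophages were higher in Lag3KO by 6.94 (CD4, 1 library each) and 10.25 (CD45, and 5.1 against WT CD45 1 alone), and dendritic cells by 3.83 (CD45, and 3.24 against WT CD45 1 alone). Microglia were higher by 14.1 (CD4, overlapping) and 9.99 (CD45, Lag3KO against the library labelled WT CD45 2). Against the 19 microglia of WT CD45 1, which are under the minimum, the CD45 difference was 10.67.

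The members were tested by genotype in each class over both sorts, with the sort as a term (edgeR quasi-likelihood test, adjusted over all genes). Of the 35 members tested in T cells 0 were called, where 0% of 10333 genes were called, 2 members had an unadjusted p under 0.05 (3.61% of all genes did), and DESeq2 also called 0. Of the T cell members 29 had a difference above 0, with a median of 0.10, against 50.5% of all genes and a median of 0.00. The differences ran from -0.60 ± 0.37 in Tgtp1 to 1.20 ± 0.98 in Batf2, with a median SE of 0.16, so a difference of the size of the median would not be detectable gene by gene. Iigp1 was the 1 member whose Lag3KO libraries all lay above the WT libraries of their sort, with 43.9 and 41.85 CPM in WT CD4, 45.9 and 69.8 in Lag3KO CD4, 22.15 in WT CD45 1, 31.8 in the library labelled WT CD45 2 and 42.4 in Lag3KO CD45. That is 1 of 35, and 4.05% of all genes had such values; 0 members had all Lag3KO libraries below, as 6% of genes did. The Iigp1 difference was 0.49 ± 0.17 (edgeR adjusted p = 1.00).

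**Figure D5:**
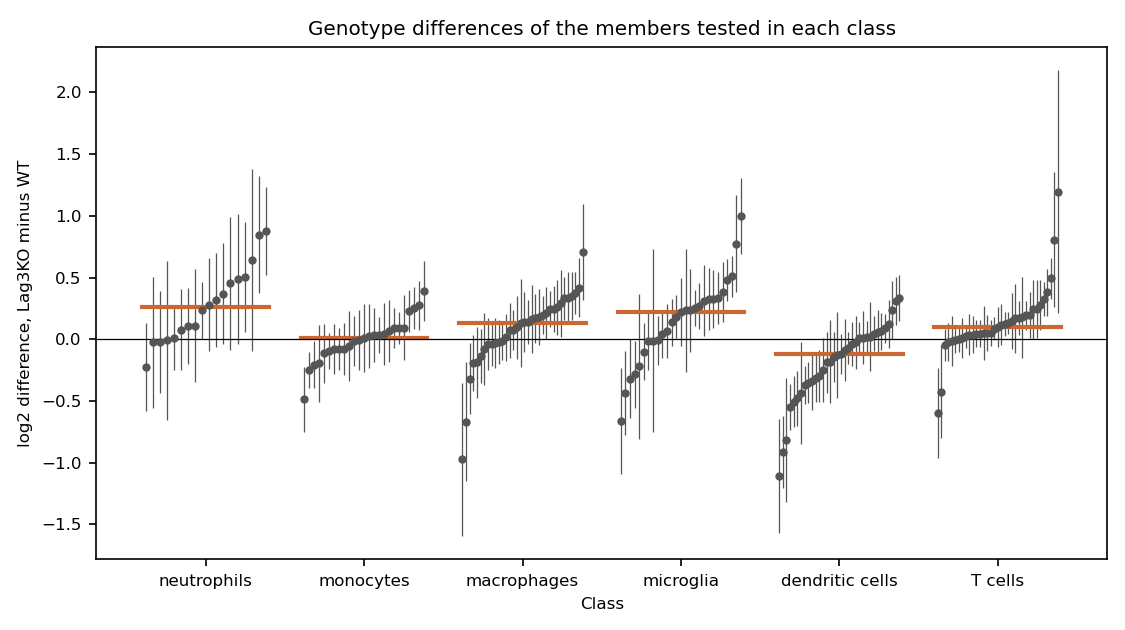
log2 difference, Lag3KO minus WT, of each member tested in each class (points, ordered by value within a class, with SE bars) and the median over members (orange line). Medians run from -0.12 in dendritic cells to 0.26 in neutrophils, and no point passed the adjusted threshold.

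In monocytes 0 of 25 members were called (0% of genes; 0 at an unadjusted p under 0.05, as were 3.89% of all genes), with 13 above 0 and a median of 0.01. In macrophages 0 of 34 were called (0.0109% of genes; 1 at an unadjusted p under 0.05, Psmb9, 0.37 ± 0.17, with 4.09% of all genes), with a median of 0.14. In microglia 0 of 27 were called (0.229% of genes; 3 at an unadjusted p under 0.05, with 7.86% of all genes). These were Tapbpl (1.00 ± 0.31), Gbp2 (0.51 ± 0.17) and Psme2 (0.48 ± 0.17). Gbp2 in microglia was at 552 and 423 CPM in WT CD4, 649 and 796 in Lag3KO CD4, 327 in the library labelled WT CD45 2 and 445 in Lag3KO CD45. The 19 microglia of WT CD45 1, left out of the fit, held 378.5 CPM. DESeq2 called 0 members in each of these classes, and so did edgeR in T cells, monocytes, macrophages and microglia with each library left out in turn, the library labelled WT CD45 2 among them.

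Dendritic cells could be compared in the CD45 libraries only, where 1 Lag3KO library stands against 2 labelled WT, so the spread comes from that pair and no test remains without the library labelled WT CD45 2. There 0 of 34 members were called (1.22% of genes; DESeq2 also 0), with a median of -0.12. The 7 members with an unadjusted p under 0.05, Gbp2, Gbp3, Ifi47, Iigp1, Irgm1, Tgtp1 and Upp1, had differences below 0, where 7.07% of all genes had such a p in either direction. Irgm1 was at 153 CPM in WT CD45 1, 176 in the library labelled WT CD45 2 and 117 in Lag3KO (-0.55 ± 0.18, edgeR adjusted p = 0.193). In the same comparison 4 of 20 type I interferon genes were called lower, Irf7 (-0.64 ± 0.15), Rsad2 (-0.96 ± 0.21), Ifit3 (-0.89 ± 0.20) and Oas1a (-1.37 ± 0.38). Irf7, a factor that amplifies interferon production, was at 420 CPM in WT CD45 1, 520 in the library labelled WT CD45 2 and 311 in Lag3KO. Oas1a, a sensor enzyme of double-stranded RNA, was at 58.05 CPM in WT CD45 1, 13.1 in the library labelled WT CD45 2 and 14.95 in Lag3KO, so its values overlap. No pathway gene was called by genotype in any class.

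In neutrophils 0 of 18 members were called (0% of genes; 1 at an unadjusted p under 0.05, Psme2, 0.88 ± 0.36, with 4.36% of all genes; DESeq2 called 0), with a median of 0.26. Gbp2 was at 573 and 449 CPM in WT CD4, 1198 and 2041 in Lag3KO CD4, 273 in WT CD45 1 and 155 in Lag3KO CD45, with 262 in the 15 barcodes of the library labelled WT CD45 2. The Lag3KO libraries are thus above WT in 1 sort and below it in the other. Ifi47 had the same order, with 299 and 513 CPM in WT CD4, 665 and 1263 in Lag3KO CD4, 152 in WT CD45 1 and 49.9 in Lag3KO CD45. With the stricter gate Gbp2 (1.88 ± 0.33, edgeR adjusted p = 0.00013) and Ifi47 (1.40 ± 0.36, adjusted p = 0.0249) were called higher; that gate leaves under 20 CD45 neutrophils in Lag3KO CD45 (17 barcodes), so only WT CD45 1 stays beside the CD4 libraries. Without WT CD45 1 the first gate called Gbp2 (1.62 ± 0.34, edgeR adjusted p = 0.0118), and so did the CD4 difference in the fit with an interaction described next (1.62 ± 0.35, adjusted p = 0.0323), whereas the CD4 libraries fitted alone did not (1.53 ± 0.34, adjusted p = 0.126). The share of all genes called in these alternative fits was not taken, so the calls cannot be set against it.

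Whether the genotype difference itself depended on the sort was tested with an interaction term in the 5 classes with both genotypes in both sorts. The interaction called 0 of 19 members in neutrophils (0.648% of genes; 6 at an unadjusted p under 0.05), 0 of 27 in monocytes (0% of genes; 1), 0 of 35 in macrophages (0% of genes; 3), 0 of 32 in microglia (0.0941% of genes; 2) and 0 of 35 in T cells (0% of genes; 3), and DESeq2 called 0 in each. Of all genes, 7.83%, 4.21%, 7.21%, 4.63% and 3.87% had an unadjusted interaction p under 0.05 in neutrophils, monocytes, macrophages, microglia and T cells. The lowest adjusted p was that of Gbp2 in neutrophils, 0.0767, with a difference between the sorts of 2.46 ± 0.62.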

How the data were processed

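The authors deposited UMI counts per gene and barcode (10x 3′ v2 chemistry); Cell Ranger, Seurat and GRCm38 are named in the submitters' processing notes, and per the file headers the CD4 matrices were written by software version 3.0.2. The sources used here do not give the authors' cell filters. The members and lists were chosen with earlier results of these data known.

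Barcodes with under 200 genes or over 10% mitochondrial UMIs (290 of 13922) were removed. The rest were placed in classes by summed marker UMIs with fixed minimums per 10000 UMIs (neutrophils 100, macrophages 100, monocytes 50, microglia 30, T cells 20, dendritic cells 8). A T cell barcode also had to stay under 60 UMIs per 10000 of monocyte and macrophage markers together. Of the 107 markers listed, 5 were not among the genes that all libraries list. Markers shared with other cells were also left out of the sums. These were Siglech for microglia and plasmacytoid dendritic cells, and Itgae, Ccr7 and Dpp4 for dendritic cells. For glial or endothelial cells they were Mbp, Aldoc and Pecam1. Barcodes ranked most like simulated doublets by Scrublet (scanpy 1.11.5) stayed in and were left out in an alternative. Near the limits of the gates lie 349 of 2733 monocytes and macrophages, 229 of 1015 dendritic cells and 210 of 6082 T cells (within 1.5 times). Counts of each class and library with at least 20 barcodes were summed and tested with edgeR 4.0.16 (TMM, filterByExpr, quasi-likelihood, two-sided, adjusted p under 0.05), with DESeq2 1.42.0 as the other tool, in R 4.3.3 and Python 3.11.15. The procedure was tested on simulated data. The stricter gate raised the minimums of neutrophils, microglia, dendritic cells and T cells and asked for a margin of 2 times between monocytes and macrophages. Total UMIs per library ran from 4585251 to 18940186, and low members rest on few UMIs.

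Named by rule with values per library were the 2 members with most UMIs in each role group, members past the threshold by genotype, members called higher in 1 class only and near-identical copies. Other members are named after their values were seen. Score differences against WT CD45 1 alone, and with the 15 neutrophils kept, were added after seeing the data, as were the values of the 19 microglia of WT CD45 1.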

Additional observations from a re-analysis of the deposited data

Results flagged for a closer look

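In neutrophils the Lag3KO and WT module scores lay in opposite orders in the sorts, which was not tested as a difference of scores. The Lag3KO minus WT difference was 24.6 in the CD4 libraries, where the medians were 41.4 and 34.7 in WT and 66.7 and 58.5 in Lag3KO, and -9.86 in the CD45 libraries, where WT CD45 1 had 36.6 and Lag3KO CD45 had 26.8. The library labelled WT CD45 2, left out for its 15 barcodes, had 26.3, next to the Lag3KO value, and with it the CD45 difference was -4.68, so the separation of the CD45 libraries rests on WT CD45 1. Median depth was 883 to 1232 UMIs in the CD4 and 8328 to 8943 UMIs in the CD45 neutrophils used, and in the few CD4 barcodes that reached 1500 UMIs the thinned medians were 13.3 and 6.67 in WT and 20 and 13.3 in Lag3KO. The part of depth in the difference was not tested, and sort and sex cannot be told apart.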

How the results depend on the processing

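No paired analysis was possible because the labels give no replicate number that groups share. Pooling the UMIs of a class gave scores of 38.9 in neutrophils, 79.3 in monocytes, 57.4 in microglia, 78.0 in dendritic cells and 59.99 in T cells. Without the 5 members with most UMIs they were 11.1, 30.4, 16.6, 21.3, 24.6 and 12.7 in neutrophils, monocytes, macrophages, microglia, dendritic cells and T cells. The stricter gate gave 15.03 in neutrophils, where only WT CD45 1 stayed (26 barcodes), and 82.0 in dendritic cells. Within the CD4 libraries the scores were 50.3 in neutrophils, 96.4 in monocytes, 71.8 in macrophages, 57.2 in microglia and 60.7 in T cells. Monocyte markers without the interferon-inducible ones, chosen after seeing the data, gave a monocyte score of 71.3, 16 members higher in monocytes, and 3 higher and 1 lower in microglia. T cells then had a score of 56.5, with 5 members higher and 17 lower, and dendritic cells had 20 higher and 1 lower.

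Members called lower numbered 3 in neutrophils and 1 in microglia with DESeq2, and 4 in microglia with no filter. With the stricter gate 2 were lower in neutrophils, 3 higher and 5 lower in microglia and 2 higher in T cells, and 2 were called by genotype in neutrophils. Leaving out each library in turn gave 0 to 1 members higher in neutrophils, 2 to 9 higher and 0 to 3 lower in microglia, 2 to 4 higher in T cells, 2 to 6 lower in macrophages and 0 to 1 by genotype in neutrophils. Lower in microglia were 0 without the library labelled WT CD45 2, which left T cells with 2 higher. Without Lag3KO CD45 macrophages had 6 lower and microglia 2 higher and 1 lower. The monocyte count was 22 to 24 and that of dendritic cells 21 to 24. The cause was not tested in any of these, and the shares of all genes called in them were not taken. RLE scaling and leaving out doublets moved no count by over 1.5 times.

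Genotype fits within the CD45 libraries could not be run for neutrophils and microglia, within the CD4 libraries for macrophages and dendritic cells, nor with a library left out for dendritic cells. CD45 microglia and neutrophils rest on few barcodes.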

Other observations

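Classes outside the 6 compared showed a wide range of the module. Barcodes with natural killer markers had a median score of 82.4, 80.5 and 81.4 in WT CD45 1, the library labelled WT CD45 2 and Lag3KO CD45, a mean of 81.4 ± 0.941 (SD, n = 3) over 23 to 47 barcodes a library, above that of monocytes in each library. Without the 5 members with most UMIs the natural killer score was 13.7, close to the 12.7 of T cells and below the 30.4 of monocytes. Plasmacytoid dendritic cells had 37.8 ± 1.61 and B cells 28.3 ± 3.49 (n = 3).

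AW112010 differed between sorts within microglia and neutrophils. CD4 neutrophils held 203, 0, 215 and 167 CPM in WT 1, WT 2, Lag3KO 1 and Lag3KO 2, and CD45 neutrophils 1230 in WT CD45 1 and 749 in Lag3KO CD45.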
